A study of Mus musculus with 12 samples.

Results

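The genes described here are 40 genes of mitosis and the spindle in CMT-93 cells, a mouse line of rectal epithelial origin that the labels call intestinal epithelial cells. They were chosen by name from the deposited table of read counts as mitotic cyclins, kinases, kinesins, kinetochore proteins and cytokinesis factors, and make up 40 of its 55137 rows. All 40 passed the filter on low counts, which kept 15267 rows. The 12 RNA-seq libraries fell into 4 groups of 3. The first group received PTSO, the garlic-derived preparation of the study, and then antigens of T. muris, the mouse whipworm (PTSO + T. muris). The second received PTSO alone, the next T. muris antigens alone, and the last neither (Control). Cells received PTSO (20 µM) or vehicle 30 minutes before the antigens (100 µg/mL), with collection at 6 hours. The series title names LPS, whereas the sample labels and design text name T. muris, and the groups follow the labels. All libraries come from a single cell line, and no label states that replicate libraries were separate cultures, so p-values cover only the spread among these samples.

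Mitotic genes are transcribed in waves, most of them in the G2 phase shortly before cells divide, and their RNA is largely absent from resting cells. Cyclin B with Cdk1 starts mitosis, kinesins and microtubule binding proteins build the spindle, kinetochore proteins attach the chromosomes to it, and the spindle checkpoint holds the cell until every chromosome is attached. The anaphase promoting complex then releases the sister chromatids, and the chromosomal passenger complex and the midzone proteins direct the division of the cell. In the gut these genes mark the dividing cells of the crypts. Their RNA in a bulk culture depends on how many cells are near division and on how much RNA each of them holds, and fewer cells and less RNA per cell cannot be told apart here.

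Promoters of such genes often hold a cell cycle genes homology region (CHR), which binds the DREAM and MuvB complexes, and CCAAT boxes, which bind NF-Y. Promoter sequences from RefSeq (GRCm38.p6) were matched by symbol for 35 of the 40 genes, and those for Ccna2, Tpx2, Kif20a, Incenp and Aurkb were not matched. Below are the 200 bases before the start of 4 genes with both motifs and, for contrast, of Nuf2, in whose 200 bases neither was found. Capitals mark the CHR (TTTGAA or TTCGAA) and the CCAAT box (CCAAT), each on either strand. Prc1 lies at chr7:80294276-80294475 on the plus strand, Top2a at chr11:99024190-99024389, Kif22 at chr7:127042421-127042620, Cdk1 at chr10:69352913-69353112 and Nuf2 at chr1:169531465-169531664, all on the minus strand.
Prc1: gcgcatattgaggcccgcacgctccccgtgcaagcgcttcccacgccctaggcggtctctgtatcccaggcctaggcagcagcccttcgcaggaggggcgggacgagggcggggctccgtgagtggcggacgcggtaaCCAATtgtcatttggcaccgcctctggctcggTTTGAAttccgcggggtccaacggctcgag
Top2a: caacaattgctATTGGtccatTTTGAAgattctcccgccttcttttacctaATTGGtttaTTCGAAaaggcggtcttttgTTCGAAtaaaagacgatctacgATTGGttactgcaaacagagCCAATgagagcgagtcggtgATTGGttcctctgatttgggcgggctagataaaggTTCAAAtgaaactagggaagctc
Kif22: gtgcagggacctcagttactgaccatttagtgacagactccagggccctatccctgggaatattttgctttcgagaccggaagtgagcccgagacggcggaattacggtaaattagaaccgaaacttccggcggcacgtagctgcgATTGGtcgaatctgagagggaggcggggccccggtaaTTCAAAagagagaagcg
Cdk1: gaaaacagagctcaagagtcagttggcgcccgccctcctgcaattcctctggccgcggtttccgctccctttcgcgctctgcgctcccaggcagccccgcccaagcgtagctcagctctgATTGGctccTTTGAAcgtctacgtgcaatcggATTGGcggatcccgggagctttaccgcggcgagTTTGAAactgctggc
Nuf2: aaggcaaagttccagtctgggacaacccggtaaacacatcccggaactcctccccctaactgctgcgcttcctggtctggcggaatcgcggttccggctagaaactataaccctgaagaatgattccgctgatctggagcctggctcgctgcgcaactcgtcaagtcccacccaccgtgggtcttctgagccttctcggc

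In these stretches Prc1 and Kif22 each held 1 CHR and 1 CCAAT box, Cdk1 held 2 of each, and Top2a held 4 CHR and 5 CCAAT boxes. Shares were counted by gene, and a gene with several starts counted if any of them held the motif. Over the window from 250 bases before to 50 bases after the start, 28 of the 35 genes (80.0%) held a CHR. This compares with 16.3% of the 10138 genes tested that had a promoter sequence and 21.7% of all 27025 gene symbols with one. A CCAAT box was found in 28 of 35 (80.0%), against 43.1% of tested genes and 41.1% of all symbols. Both motifs were present in 25 of 35 (71.4%), against 8.13% of tested genes and 9.65% of all symbols. An E2F site (TTTCCCGC, TTTGGCGC, TTTCGCGC or TTTGCCGC, either strand) was found in 1 of 35 (2.86%), Cdk1. It was found in 4.68% of tested genes and 2.61% of all symbols. With the 250 bases before the start alone, the share with a CHR was 37.1%, against 14.5% of tested genes, and the share with both motifs was 34.3%, against 6.76%. These are matches of letters, not measured binding. In PTSO against control, the 28 genes with a CHR had a median log2 fold change of 0.29, and the 7 without one had 0.33. Of these, 13 of 28 and 3 of 7 were called higher (edgeR adjusted p under 0.05), against 2.36% of all genes tested. Without control libraries 2 and 3, described below, the median of all 40 genes fell from 0.30 to 0.082. A difference between genes with and without a CHR was not tested.

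**Figure D1:**
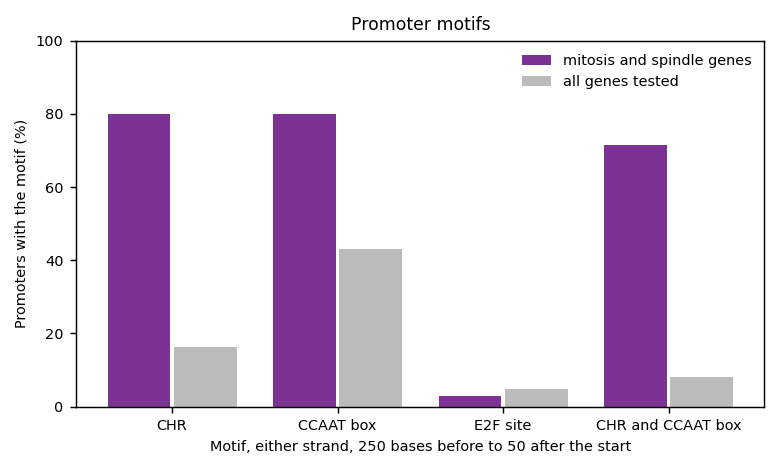
Share of genes with each motif (x axis) in any of their promoters (y axis, percent). Bars show the 35 matched mitosis and spindle genes and the 10138 tested genes with a promoter sequence. The CHR and the CCAAT box were each found in 80.0% of the matched genes, and the E2F site in 2.86%.

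The libraries held 16.7 M to 34.5 M counts, and the 40 genes took 0.568 to 0.615% of them in PTSO + T. muris, 0.526 to 0.579% in PTSO, 0.537 to 0.540% in T. muris and 0.393 to 0.513% in Control. On the first principal component of all tested genes, control libraries 2 and 3 lay at -35.4 and -41.5, whereas control library 1 lay at -3.58 and the rest between 0.929 and 23.0; this component held 19.6% of the variance. The share of mitochondrial counts, 0.897 to 1.57%, was 1.20 to 1.33% in Control, inside the range of the other groups. Epithelial identity was checked with 8 markers: Epcam, Krt8, Krt18, Krt19 and Cdh1 ranged from 479 to 3093 CPM (read counts scaled to library size), whereas the intestinal genes Vil1 and Cdx2 stayed under 4.5 and Cdx1 had 0 counts in every library. The summed level of 8 leukocyte markers was 3.57 to 4.65 CPM in PTSO + T. muris, 3.30 to 6.00 in PTSO, 3.48 to 5.49 in T. muris and 4.78 to 6.34 in Control, with 11 counts of Ptprc and 3 of Cd3e over all libraries. The summed level of 8 fibroblast and endothelial markers was 2.83 to 4.14 in PTSO + T. muris, 3.40 to 4.83 in PTSO, 4.29 to 4.64 in T. muris and 3.67 to 4.76 in Control, with Col3a1, Dcn and Lum at 0.

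Most of the 40 genes were lowest in the same libraries. The median deviation of the 40 genes from their own 12-library means (log2 scale) was 0.22, 0.17 and 0.089 in the 3 PTSO + T. muris libraries, -0.0065, 0.11 and 0.084 in PTSO, 0.038, 0.040 and 0.021 in T. muris, and -0.030, -0.29 and -0.44 in Control. The same median over all tested genes stayed between 0.0021 and 0.0064 in every library. Control library 2 or 3 was the lowest of all 12 for 37 of the 40 genes, and control library 1 lay above both of them for 37. The highest library was PTSO + T. muris 1 for 23 genes and PTSO + T. muris 2 for 10. Comparisons with Control are therefore also given without control libraries 2 and 3, which leaves control library 1 alone in that group.

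**Figure D2:**
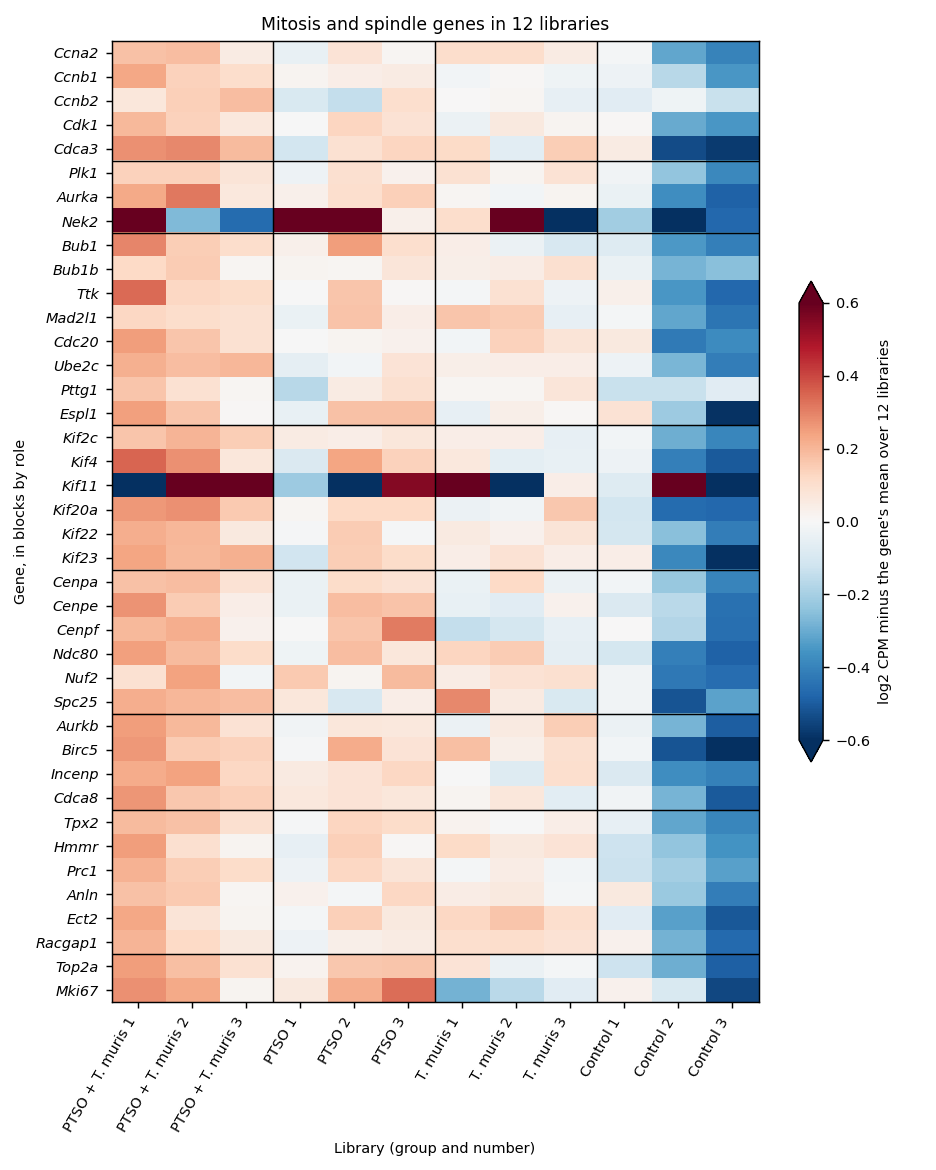
Log2 CPM of each of the 40 genes (rows, by role) minus its mean over the 12 libraries (columns, by group). The colour scale runs from -0.6 to 0.6, and some values exceed it, among them values of Kif11, Nek2 and Birc5. Control library 2 or 3 is the lowest for 37 of 40 genes (library 3 for 34), and a PTSO + T. muris library is the highest for most.

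PTSO against control asks what PTSO does without antigens. Mitotic genes were higher after PTSO: 19 of 40 rose and 0 fell, against 5.25% of all genes called, 2.36% higher and 2.9% lower. The log2 fold change was above 0 for 39 of 40 genes, with a median of 0.30, whereas 7688 of the 15267 genes tested were above 0, with a median of 0.0016. The 3 PTSO libraries lay above all 3 control libraries for 21 of 40 genes, against 10.4% of all genes. Without control libraries 2 and 3, none of the 40 was called (10 at an unadjusted p under 0.05, and 0.463% of all genes called), 35 were above 0 and the median was 0.082. Here and below, values are CPM scaled by TMM, fold changes are log2 values with their SE from edgeR's quasi-likelihood test, and called means a Benjamini-Hochberg adjusted p under 0.05 over all genes tested.

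Of the 5 genes of mitotic entry, 2 rose. Cdk1 (ENSMUSG00000019942), the kinase that drives entry into mitosis, was at 157, 172 and 168 CPM with PTSO, against 158, 128 and 124 CPM in Control. Control library 1 lay inside the PTSO range, and the other controls lay below it. Its log2 fold change was 0.28 ± 0.0731 (adjusted p = 0.0362), and 0.066 ± 0.0628 without control libraries 2 and 3. Ccnb1 (ENSMUSG00000041431), the cyclin B1 partner of Cdk1, was at 158, 160.3 and 161 CPM with PTSO, against 152, 139 and 122 CPM in Control. There was no overlap, and Ccnb1 rose by 0.21 ± 0.0611 (adjusted p = 0.0493). Ccnb2 (ENSMUSG00000032218), the other B-type cyclin, was at 66.8, 64.3 and 76.3 CPM with PTSO, against 67.8, 69.8 and 64.7 CPM in Control. These groups overlapped fully, with a log2 fold change of 0.034 ± 0.0629 (adjusted p = 0.808).

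Of the 3 mitotic kinases, Plk1 and Aurka rose. Aurka (ENSMUSG00000027496), the Aurora A kinase of the centrosome, was at 111, 116 and 119 CPM with PTSO, against 105, 83.6 and 77.3 CPM in Control, with no overlap. It rose by 0.38 ± 0.0925 (adjusted p = 0.0331). Nek2 (ENSMUSG00000026622), a kinase of centrosome separation, had the fewest counts of the 40, at 2.27, 2.23 and 1.36 CPM with PTSO, against 1.15, 0.690 and 0.960 CPM in Control. The groups did not overlap, but at these counts the log2 fold change of 1.07 ± 0.476 did not pass the test (adjusted p = 0.189).

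Of the 8 genes of the spindle checkpoint and anaphase, 2 rose. Bub1 (ENSMUSG00000027379), a checkpoint kinase at the kinetochore, was at 128, 149 and 135 CPM with PTSO, against 119, 98.9 and 94.3 CPM in Control, with no overlap. It rose by 0.40 ± 0.0804 (adjusted p = 0.0109). Bub1b (ENSMUSG00000040084), which encodes the checkpoint protein BubR1, was at 106, 106 and 110.3 CPM with PTSO, against 102, 86.5 and 88.2 CPM in Control. There was no overlap, and it rose by 0.22 ± 0.0592 (adjusted p = 0.0367). Pttg1 (ENSMUSG00000020415), the securin that restrains separase, was at 32.4, 37.7 and 38.9 CPM with PTSO, against 33.2, 33.2 and 34.7 CPM in Control. The PTSO range enclosed the control range, with a log2 fold change of 0.11 ± 0.0775 (adjusted p = 0.445).

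Of the 6 mitotic kinesins, 3 rose: Kif2c, Kif20a and Kif22. Kif20a (ENSMUSG00000003779), a motor of the central spindle, was at 101, 109 and 109 CPM with PTSO, against 92.9, 72.8 and 72.4 CPM in Control. It rose by 0.42 ± 0.0833 (adjusted p = 0.0106), with no overlap. Kif22 (ENSMUSG00000030677), a kinesin that binds chromosome arms, was at 75.2, 84.0 and 75.1 CPM with PTSO, against 70.2, 63.5 and 56.6 CPM in Control. It rose by 0.30 ± 0.0703 (adjusted p = 0.0173), also with no overlap. Kif11 (ENSMUSG00000012443), which pushes the spindle poles apart, was at 10.5, 6.13 and 17.8 CPM with PTSO, against 11.5, 20.6 and 3.38 CPM in Control. Libraries of the same group differed several-fold, and the log2 fold change was -0.055 ± 0.875 (adjusted p = 0.982); without PTSO library 2 it was 0.25, and without control library 2 it was 0.60.

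Of the 6 centromere and kinetochore genes, 3 rose: Cenpe, Ndc80 and Nuf2. Ndc80 and Nuf2 encode subunits of the NDC80 complex, which holds the microtubule end. Ndc80 (ENSMUSG00000024056) was at 65.7, 76.0 and 70.1 CPM with PTSO, against 62.1, 50.3 and 47.8 CPM in Control, and rose by 0.40 ± 0.0863 (adjusted p = 0.0137). Nuf2 (ENSMUSG00000026683) was at 47.4, 43.0 and 48.5 CPM with PTSO, against 42.0, 31.6 and 31.0 CPM in Control, and rose by 0.41 ± 0.0984 (adjusted p = 0.0218). For both, every PTSO library lay above every control library, with control library 1 nearest. Spc25 (ENSMUSG00000005233), another subunit of the complex, was at 35.5, 31.7 and 34.8 CPM with PTSO, against 33.4, 23.7 and 27.1 CPM in Control. Control library 1 lay inside the PTSO range, and the log2 fold change was 0.28 ± 0.109 (adjusted p = 0.135).

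Of the 4 genes of the chromosomal passenger complex, 2 rose. Incenp (ENSMUSG00000024660), its scaffold, was at 149.7, 153 and 157 CPM with PTSO, against 136, 112 and 109 CPM in Control, with no overlap. It rose by 0.37 ± 0.0701 (adjusted p = 0.00658), the smallest adjusted p among the 40. Cdca8 (ENSMUSG00000028873), borealin, was at 68.3, 69.1 and 68.4 CPM with PTSO, against 64.4, 53.8 and 46.1 CPM in Control, and rose by 0.33 ± 0.0851 (adjusted p = 0.0350). Birc5 (ENSMUSG00000017716), survivin, was at 86.2, 101 and 91.6 CPM with PTSO, against 85.5, 60.4 and 56.2 CPM in Control. These groups did not overlap, but control library 1 lay just under the lowest PTSO library, and the log2 fold change of 0.47 ± 0.134 did not pass the test (adjusted p = 0.0743).

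Of the 6 genes of spindle assembly, midzone and cytokinesis, 4 rose: Tpx2, Hmmr, Prc1 and Ect2. Prc1 (ENSMUSG00000038943), which bundles the microtubules of the midzone, was at 133, 148 and 143 CPM with PTSO, against 124, 118 and 108 CPM in Control. It rose by 0.27 ± 0.0556 (adjusted p = 0.00824). Tpx2 (ENSMUSG00000027469), an activator of Aurora A on the spindle, was at 228, 251 and 247 CPM with PTSO, against 222, 185 and 175 CPM in Control, and rose by 0.32 ± 0.0666 (adjusted p = 0.0109). Neither gene's groups overlapped. Anln (ENSMUSG00000036777), of the contractile ring, was at 149.5, 146 and 160.2 CPM with PTSO, against 153, 126 and 110.2 CPM in Control. Control library 1 lay among the PTSO libraries, the log2 fold change was 0.23 ± 0.0913 (adjusted p = 0.155), and it turned to -0.011 without control libraries 2 and 3.

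Of the pair that bear on chromosome structure, Top2a rose. Top2a (ENSMUSG00000020914), the topoisomerase that untangles sister chromatids, had the most counts of the 40, at 887, 978 and 982 CPM with PTSO, against 803, 714 and 624 CPM in Control. It rose by 0.41 ± 0.0764 (adjusted p = 0.00998), with no overlap, and its log2 fold change was 0.24 ± 0.0619 without control libraries 2 and 3 (adjusted p = 0.115). Mki67 (ENSMUSG00000031004), the proliferation marker that coats mitotic chromosomes, was at 234, 261 and 284 CPM with PTSO, against 229, 211 and 154 CPM in Control. The groups did not overlap, and the log2 fold change of 0.39 ± 0.144 did not pass the test (adjusted p = 0.148).

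The count of 19 rested on several libraries. Leaving out control library 1, 2 or 3 gave 35, 1 and 6 calls, against 23.1, 1.05 and 1.41% of all genes. Leaving out PTSO library 2 or 3 gave 1 and 4, against 1.13 and 1.42%. The count also moved with libraries outside the comparison, whose removal changes both the genes tested and the estimate of spread. It was 10 when T. muris library 1 or 2 was left out (3.69 and 3.61% of all genes called). It was 11 when T. muris library 3 or PTSO + T. muris library 2 was left out (3.58 and 3.56%). No gene of the 19 was called in every one of the 12 fits that leave out 1 library. With only the 6 libraries of this comparison in the fit, 0 of 40 were called (31 at an unadjusted p under 0.05, and 0.314% of all genes called).

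**Figure D3:**
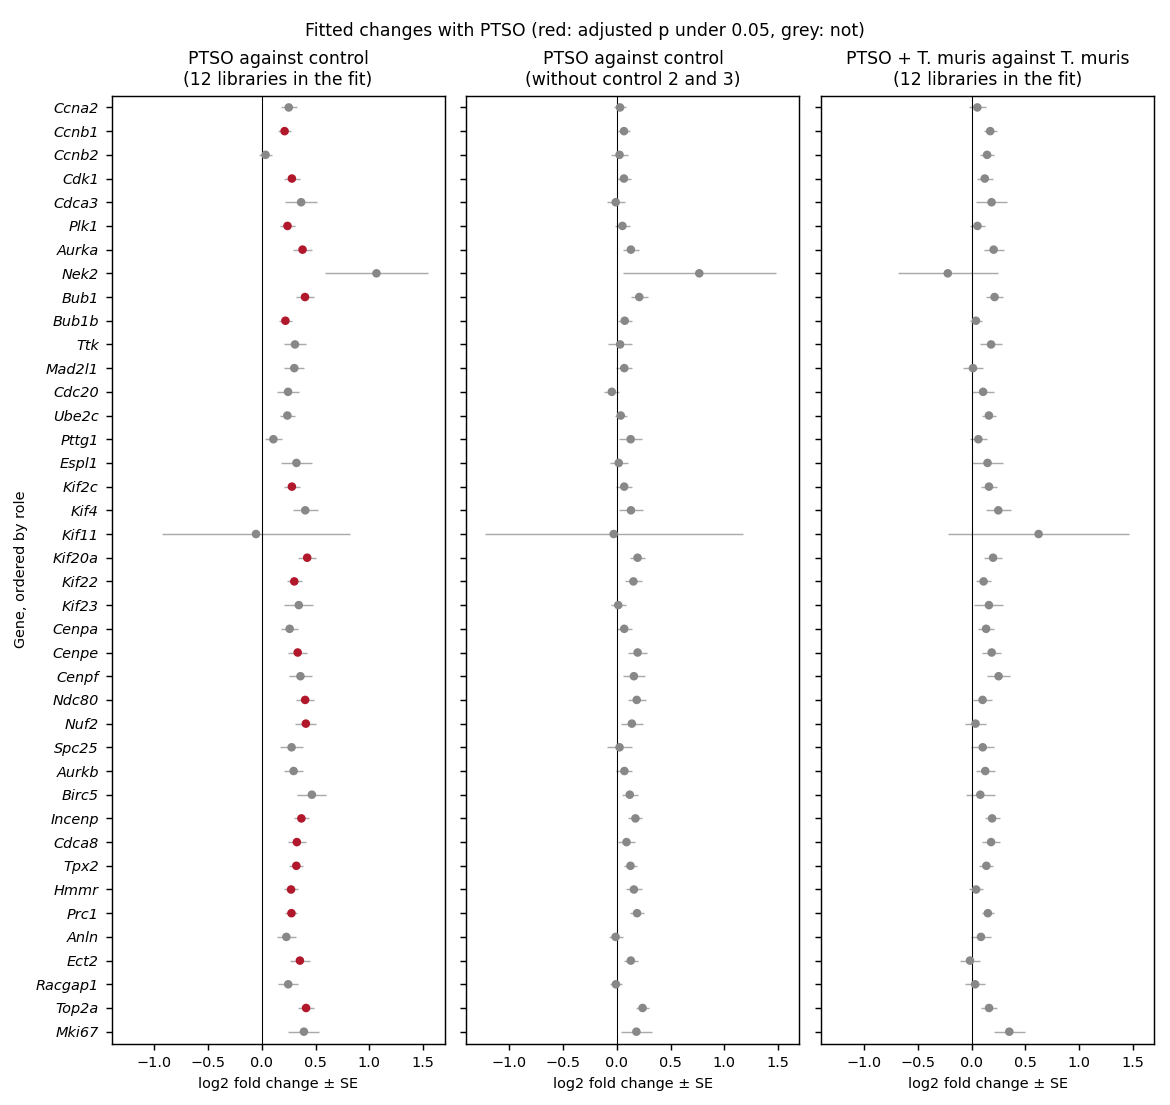
Log2 fold change ± SE of each of the 40 genes (rows) for PTSO against control with 12 libraries, for PTSO against control without control libraries 2 and 3, and for PTSO + T. muris against T. muris. The median is 0.30 in the first panel, 0.082 in the second and 0.14 in the last.

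The effect of PTSO in the presence of antigens is the difference of PTSO + T. muris from T. muris, with no control library on either side. Mitotic genes lay slightly higher with PTSO, with 38 of 40 above 0 and a median log2 fold change of 0.14, against 7670 of 15267 genes and a median of 0.00084 over all genes. None of the 40 was called in the fit of 12 libraries, in which 0.616% of all genes were called; 12 had an unadjusted p under 0.05, and DESeq2 also called 0, against 1.46% of all genes. The 3 PTSO + T. muris libraries lay above all 3 T. muris libraries for 19 of 40 genes, against 8.92% of all genes. With only these 6 libraries in the fit, 13 of 40 were called higher, against 3.31% of all genes called. Without control libraries 2 and 3 in the fit, which also changed the number of genes tested to 16619, 7 were called (Aurka, Bub1, Ccnb1, Incenp, Kif20a, Top2a and Ube2c), against 2.56% of all genes. With control library 1 left out 6 were called, against 2.36% of all genes. Leaving out any other library gave 0, against 0.147 to 1.03% of all genes.

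Ccnb1 had the smallest p of this comparison, at 183, 172 and 167 CPM in PTSO + T. muris, against 154, 157 and 153 CPM in T. muris. The groups did not overlap, and the log2 fold change was 0.17 ± 0.0611 (adjusted p = 0.319), or 0.17 ± 0.0424 (adjusted p = 0.0182) with only these 6 libraries in the fit. Prc1 was at 157, 150.0 and 146 CPM in PTSO + T. muris, against 134, 139.6 and 134 CPM in T. muris. It did not overlap either, with a log2 fold change of 0.15 ± 0.0556 (adjusted p = 0.353). Incenp was at 168, 171 and 157 CPM in PTSO + T. muris, against 144, 137 and 155 CPM in T. muris, a log2 fold change of 0.19 ± 0.0700 (adjusted p = 0.359). Its lowest PTSO + T. muris library lay just above T. muris library 3.

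Top2a was at 1040.5, 991 and 931 CPM in PTSO + T. muris, against 926, 854 and 869 CPM in T. muris, so that the closest libraries of the groups nearly touched. Kif20a was at 120.0, 122 and 112 CPM in PTSO + T. muris, against 98.0, 98.8 and 112 CPM in T. muris, where T. muris library 3 reached the other group. Mki67 was at 272, 263 and 228 CPM in PTSO + T. muris, against 185, 201 and 214 CPM in T. muris, with no overlap and a log2 fold change of 0.35 ± 0.145 (adjusted p = 0.518). Cenpf, a kinetochore protein that builds up in G2, had the smallest p when only these 6 libraries were fitted, with a log2 fold change of 0.25 ± 0.0468 (adjusted p = 0.00140). By contrast Ect2, the exchange factor that starts cytokinesis, was at 371, 333 and 319 CPM in PTSO + T. muris, against 343, 353 and 338 CPM in T. muris, and Nek2 was at 2.30, 1.11 and 0.966 CPM, against 1.43, 3.05 and 0.542 CPM. Those were the 2 genes of the 40 with a log2 fold change below 0, at -0.02 ± 0.0920 and -0.22 ± 0.464.

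**Figure D4:**
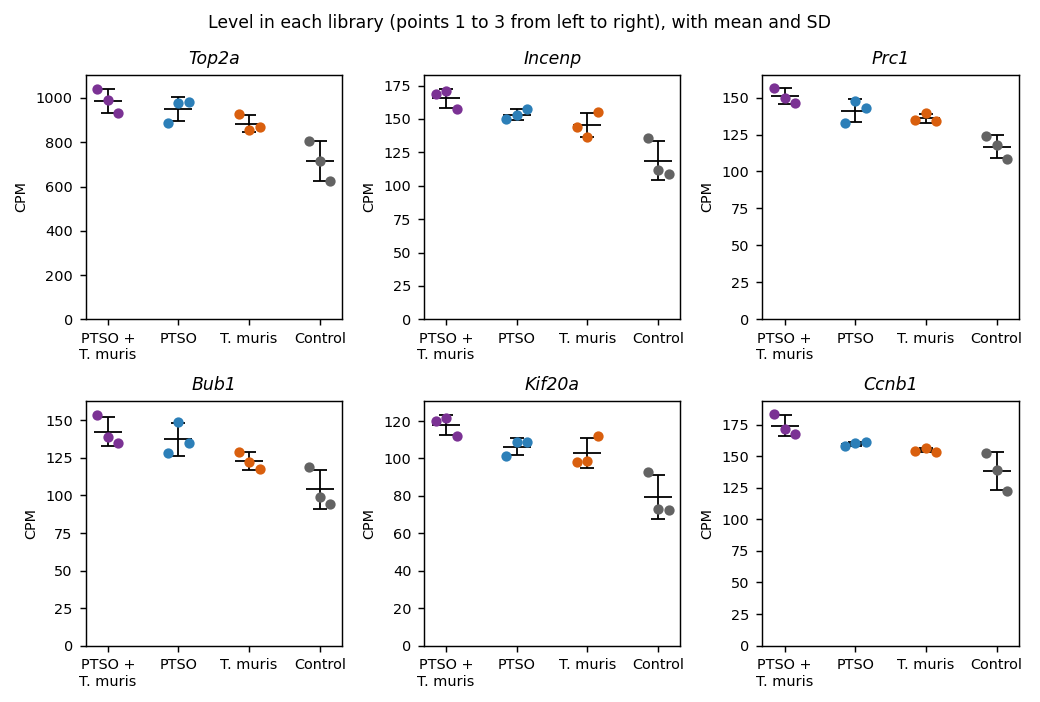
TMM-scaled CPM of Top2a, Incenp, Prc1, Bub1, Kif20a and Ccnb1 (each panel with its own axis) in the 3 libraries of each group (dots), with the mean and SD (bars). Control libraries 2 and 3 lie lowest in every panel, with control library 1 nearer the other groups.

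Averaged over both backgrounds, PTSO was followed by higher mitotic gene RNA: 18 of 40 rose and 0 fell, against 6.51% of all genes called, 2.8% higher and 3.71% lower, all 40 were above 0, and the median log2 fold change was 0.22. Incenp averaged 165 ± 7.31 CPM in PTSO + T. muris and 153 ± 3.94 CPM in PTSO, against 145 ± 9.16 CPM in T. muris and 119 ± 14.8 CPM in Control (SD, n = 3 each), and rose by 0.28 ± 0.0495 (edgeR adjusted p = 0.00226). Prc1 rose by 0.21 ± 0.0393 (adjusted p = 0.00248) and Bub1 by 0.31 ± 0.0568 (adjusted p = 0.00440). Called in all 12 fits that leave out 1 library were 8 genes: Bub1, Ccnb1, Incenp, Kif20a, Kif2c, Prc1, Top2a and Tpx2. The share of all genes tested that kept a call in all 12 fits was not counted. With control libraries 2 and 3 left out, 7 of the 18 were still called (Aurka, Bub1, Incenp, Kif20a, Prc1, Top2a and Tpx2), against 3.17% of all genes, and the median was 0.10. All 6 libraries with PTSO lay above all 6 without it for 3 of 40 genes, against 1.18% of all genes. Leaving out control library 1 gave 36 calls (20.2% of all genes called) and control library 2 gave 9 (3.76%). Without PTSO library 2 there were 8 (3.2%), and without PTSO library 3 there were 11 (3.89%). Without T. muris library 1, 2 or 3 there were 12, 11 and 11 (3.84, 3.78 and 4.03%). Without PTSO + T. muris library 1 or 2 there were 8 and 10 (3.47 and 3.6%).

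T. muris against control asks what the antigens do alone. Of the 40 genes 16 rose and 0 fell, against 6.35% of all genes called, 2.91% higher and 3.43% lower. All 40 were above 0, the median log2 fold change was 0.29, and the groups did not overlap for 20 of 40, against 11.3% of all genes. Hmmr, a hyaluronan receptor that binds spindle microtubules, was at 101, 97.1 and 98.8 CPM in T. muris, against 85.7, 79.3 and 72.9 CPM in Control, and rose by 0.32 ± 0.0676 (adjusted p = 0.0191). Ndc80 was at 73.2, 74.4 and 64.5 CPM in T. muris and rose by 0.41 ± 0.0866 (adjusted p = 0.0205), and Kif22 was at 78.3, 77.0 and 79.6 CPM and rose by 0.30 ± 0.0706 (adjusted p = 0.0236); for these 3 genes no control library reached the T. muris range. Mki67 averaged 200.1 ± 14.9 CPM in T. muris, against 198 ± 39.2 CPM in Control (SD, n = 3 each), with a log2 fold change of 0.01 ± 0.145 (edgeR adjusted p = 0.967). Without control libraries 2 and 3, 0 of 40 were called (6 at an unadjusted p under 0.05, and 0.0481% of all genes called) and the median was 0.074. Leaving out control library 1 gave 33 calls, against 25.7% of all genes. Leaving out control library 2 or 3 or T. muris library 1 or 2 gave 0, against 0.0319, 0.42, 0.0127 and 0.153%. Leaving out T. muris library 3 gave 1, against 0.369%. With only these 6 libraries in the fit 0 were called (30 at an unadjusted p under 0.05, and 0.00689% of all genes called).

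The effect of the antigens in the presence of PTSO is the difference of PTSO + T. muris from PTSO. There 36 of 40 were above 0 with a median log2 fold change of 0.10, and 0 were called, as were 0 of all 15267 genes; 2 had an unadjusted p under 0.05, and DESeq2 called 0 of the 40 and 0.149% of all genes. The groups did not overlap for 11 of 40, against 7.49% of all genes. Ube2c, the ubiquitin conjugating enzyme of the anaphase promoting complex, was at 249.7, 245 and 247 CPM in PTSO + T. muris, against 208, 213 and 228 CPM in PTSO. The groups did not overlap, and the log2 fold change was 0.19 ± 0.0681 (adjusted p = 0.760), or 0.20 ± 0.0392 (adjusted p = 0.0128) without control libraries 2 and 3 in the fit. Ccnb2 was at 74.5, 78.4 and 80.9 CPM in PTSO + T. muris, against 66.8, 64.3 and 76.3 CPM in PTSO, a log2 fold change of 0.17 ± 0.0627 (adjusted p = 0.760), and Ccnb1 had one of 0.12 ± 0.0609 (adjusted p = 0.799). Averaged over both backgrounds, 14 of 40 genes rose with the antigens and 0 fell, against 5.19% of all genes called, 2.12% higher and 3.07% lower, with a median of 0.20. The 6 libraries with antigens lay above all 6 without them for 1 of 40, against 0.721% of all genes. In that average Ube2c rose by 0.23 ± 0.0483 (adjusted p = 0.0183), Hmmr by 0.21 ± 0.0476 (adjusted p = 0.0239) and Kif20a by 0.26 ± 0.0587 (adjusted p = 0.0254). No gene kept its call in every fit that left out 1 library. The count was 33 when control library 1 was left out, against 23.7% of all genes. It was 0 to 9 when any other library was left out, against 0.351 to 3.12% of all genes. Without control libraries 2 and 3 the median was 0.087, against 0.20 in the main fit, with 37 of 40 above 0.

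PTSO + T. muris against control sets both treatments against neither. Of the 40 genes 34 rose and 0 fell, against 16.7% of all genes called, 7.88% higher and 8.85% lower. All 40 were above 0, with a median log2 fold change of 0.40, and the groups did not overlap for 35 of 40, against 14.5% of all genes. Prc1 rose by 0.37 ± 0.0557 (adjusted p = 0.000325), Incenp by 0.48 ± 0.0703 (adjusted p = 0.000361) and Kif20a by 0.57 ± 0.0834 (adjusted p = 0.000615). Of the markers of other cell types, the fibroblast gene Pdgfra, with 288 counts over all libraries, was lower in the same comparison. It was at 0.234, 0.687 and 0.254 CPM in PTSO + T. muris, against 0.754, 1.74 and 2.11 CPM in Control. Its log2 fold change was -1.93 ± 0.518 (adjusted p = 0.0159), and -0.91 ± 0.718 without control libraries 2 and 3. The fibroblast gene Col1a2 went the other way, at 1.41 ± 0.576 (adjusted p = 0.0972). Col1a1 was at -0.37, Cd68 at -0.62 and Csf1r at 0.015, and none of these passed. Their part in the mitotic gene values was not tested. The 6 mitotic genes that did not pass were Nek2, Kif11, Pttg1, Espl1, Cenpf and Mki67. Of the 40, with control libraries 2 and 3 left out, Incenp, Kif20a, Prc1, Top2a and Ube2c were called, against 1.23% of all genes, and the median was 0.20. Fitting these 6 libraries alone gave 23 calls, against 5.93% of all genes. The count was 21 when control library 2 was left out, against 6.32% of all genes. Of the 34 genes, 20 were called in all 12 fits that leave out 1 library, and the same share was not counted over all genes.

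The interaction is the difference between the changes with PTSO in the presence and in the absence of antigens. It had a median log2 value of -0.17 over the 40 genes, with 2 above 0. None was called, as were 0 of all genes; 7 had an unadjusted p under 0.05, and DESeq2 called 0 of the 40 and 0.0137% of all genes. Nuf2 and Ect2 were both at -0.37 (SE 0.139 and 0.130) and Ndc80 at -0.30 ± 0.122, each with an adjusted p of 0.644. The sign of the median rested on the control libraries: it was 0.049 without control libraries 2 and 3, with 27 above 0, and -0.29 without control library 1, where 24 were called lower against 8.14% of all genes called.

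Other cell cycle genes were set beside the 40, from lists of related genes. Of 41 other mitotic genes, 16 rose and 0 fell in PTSO against control, in which 5.25% of all genes were called, with a median log2 fold change of 0.29. Examples were Kif18b, a kinesin of chromosome alignment, at 0.47 ± 0.0924 (adjusted p = 0.00769), Knl1, the kinetochore scaffold, at 0.38 ± 0.0761 (adjusted p = 0.00927), Kif20b at 0.29 ± 0.0600 and Cep55, of the midbody, at 0.24 ± 0.0522. Of 16 condensin and cohesin subunits 7 rose, with a median of 0.21, and among them were the condensin subunits Ncapd2 (0.30 ± 0.0567), Ncapg (0.33 ± 0.0714), Ncapg2 (0.35 ± 0.0761) and Smc4 (0.20 ± 0.0456). Of 26 DNA replication genes 7 rose, with a median of 0.26, among them the helicase genes Cdc45 (0.48 ± 0.108), Mcm3 (0.36 ± 0.0783) and Mcm4 (0.26 ± 0.0696) and the primase gene Prim1 (0.45 ± 0.113). Without control libraries 2 and 3, an alternative added after the data were seen, 0 genes of these 3 lists were called in PTSO against control (5, 5 and 2 at an unadjusted p under 0.05), against 0.463% of all genes, with medians of 0.071, 0.10 and 0.061. In the PTSO average, 19, 6 and 4 genes of the 3 lists rose, against 6.51% of all genes called, and 4, 3 and 1 without those libraries, against 3.17%. In PTSO + T. muris against T. muris, 0 genes of these 3 lists were called, against 0.616% of all genes, with medians of 0.12, 0.075 and 0.073, and 13, 5 and 2 genes at an unadjusted p under 0.05. With control libraries 2 and 3 out of the fit 5, 2 and 1 were called there, against 2.56% of all genes.

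Of 16 subunits and regulators of the anaphase promoting complex 0 were called in PTSO against control (5 at an unadjusted p under 0.05), with a median of 0.053; with control libraries 2 and 3 left out 0 were called and 0 had an unadjusted p under 0.05, with a median of 0.025. The smallest p-values there were those of Anapc11 (0.21 ± 0.0650), Ube2s (0.22 ± 0.0672), Fbxo5 (0.33 ± 0.103) and Anapc7 (0.14 ± 0.0568). Of 16 regulators of mitotic transcription, the p107 gene Rbl1 rose by 0.36 ± 0.0653 (adjusted p = 0.00401; 0.20 ± 0.0697 and adjusted p = 0.322 without control libraries 2 and 3). The median of the 16 was 0.075, with 11 above 0, and turned to -0.026, with 7 above 0, when those libraries were left out. Foxm1, an activator of G2 genes, was at 169.9, 180.3 and 179 CPM with PTSO, against 172, 125 and 113 CPM in Control, a log2 fold change of 0.37 ± 0.131 (adjusted p = 0.133). Mybl2, the B-Myb activator, was at 89.1, 95.8 and 88.0 CPM with PTSO, against 96.6, 67.2 and 64.8 CPM in Control, a log2 fold change of 0.26 ± 0.128 (adjusted p = 0.266) that turned to -0.086 without control libraries 2 and 3. For both, control library 1 was inside or above the PTSO range. Lin54 (0.22 ± 0.0772) and Rbl2 (-0.19 ± 0.0670) did not pass. Nfya, a subunit of the CCAAT-binding factor NF-Y, was at 2.96, 2.85 and 3.10 CPM with PTSO, against 16.2, 10.4 and 3.15 CPM in Control. Its log2 fold change of -1.73 ± 0.538 did not pass (adjusted p = 0.0964), whereas DESeq2 called it with all libraries (adjusted p = 0.0190). With control libraries 2 and 3 left out it was -2.45 ± 0.297, against control library 1 alone, its highest library. Measured from that same library, Nfya was also lower with antigens alone (-2.22) and with both treatments (-1.97). Adding PTSO to the antigens changed it by 0.25 ± 0.247 in that fit. The lower level was therefore not confined to PTSO.

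**Figure D5:**
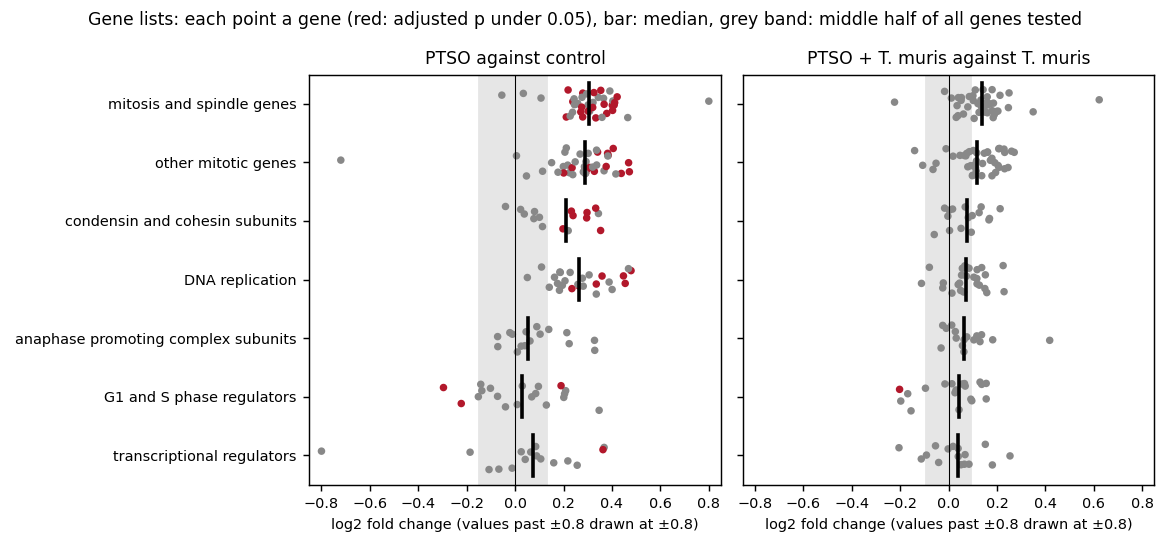
Log2 fold changes of the 40 genes and of 6 lists of related cell cycle genes (rows) for PTSO against control and for PTSO + T. muris against T. muris, with the median of each list (bar) and the interquartile range of all genes tested (grey band); values past 0.8 are drawn at 0.8, and red marks an adjusted p under 0.05. The medians of the 40 genes are 0.30 and 0.14.

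The 40 genes differed in how evenly they were measured. Leaving out Kif11 and Nek2, the other 38 had 498 to 31695 counts per library, a highest library 1.26 to 1.84 times the lowest, and a coefficient of variation between replicates in the edgeR fit of 5.35 to 12.5%. Nek2 had 9 to 79 counts per library and a coefficient of 37.4%, against a median of 25.3% over the 1031 genes within 0.5 log2 CPM of its level. Kif11 had 88 to 894 counts per library and a coefficient of 70.1%, against a median of 10.6% over 1379 genes of like level, 99.8% of which had a lower one. Within PTSO + T. muris, Kif11 was at 6.20, 28.5 and 35.3 CPM, and within T. muris at 26.1, 5.76 and 12.5 CPM, so that no group held libraries of one level.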

How the data were processed

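RNA of 12 libraries was measured. The authors deposited a table of raw read counts with 1 column per library, whose values are whole numbers. HISAT, DESeq2 and mm39 appear in the submitters' processing notes, without versions or roles. What counted the reads, with which annotation and use of strand, is not stated in the sources used here, so reads shared with overlapping or antisense genes cannot be set apart. The filter filterByExpr (edgeR 4.0.16) kept 15267 of 55137 rows (413 of them unannotated loci) with 99.93% of the counts. Libraries were scaled by TMM, and all 12 libraries entered 1 model with a term for each group (8 residual degrees of freedom; biological coefficient of variation 8.74%) with robust quasi-likelihood tests in R 4.3.3. P-values were adjusted by Benjamini-Hochberg over all 15267 genes and called under 0.05; the SE is the log2 fold change divided by the square root of F. The fit was tested on simulated data. DESeq2 1.42.0 was an alternative. Motifs were counted in Python 3.11.15 and figures drawn with matplotlib 3.10.9.

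The members and lists were chosen with earlier results of these data known. In PTSO against control, values in every library are given for members chosen in each role. These are the members with the smallest p (2, or 1 in roles under 4 members) and the largest p. Elsewhere fold changes are given for the 3 smallest, and in each other list for up to 4 genes with the smallest p. Values in every library are printed for only some of those. Top2a, Kif20a, Mki67, Cenpf, Ect2 and Nek2 in the comparison with antigens, Mki67 in T. muris against control, and the 6 plotted genes, were chosen after their values were seen. The mm39 build differs from that of the promoter table, so no other coordinates are given.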

Additional observations from a re-analysis of the deposited data

How the results depend on the processing

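Called genes are given in this order: PTSO against control; both against T. muris; the PTSO average; T. muris against control; both against PTSO; the T. muris average; both against control; and the interaction. The main counts were 19, 0, 18, 16, 0, 14, 34 and 0. The shares of all genes called, in the same order, were 5.25, 0.616, 6.51, 6.35, 0, 5.19, 16.7 and 0%. Without the filter on low counts the number called was 32, 2, 31, 31, 0, 30, 34 and 1. The shares of all genes were then 5.92, 0.852, 5.6, 7.06, 0.144, 6.22, 10.1 and 0.154%. With the DESeq2 test the counts were 28, 0, 25, 26, 0, 24, 35 and 0. The shares of all genes were then 12.3, 1.46, 10.7, 15.8, 0.149, 14.4, 23.7 and 0.0137%. With only the groups compared, which leaves out the averages and the interaction, the shares were 0.314, 3.31, 0.00689, 0.232 and 5.93%. The counts of the 40 genes were then 0, 13, 0, 1 and 23. Without control libraries 2 and 3 together they were 0, 7, 7, 0, 1, 0, 5 and 0, and the first, the PTSO average, T. muris against control, both against control and the interaction had medians of 0.082, 0.10, 0.074, 0.20 and 0.049. Leaving out 1 library gave 1 to 35, 0 to 6, 8 to 36, 0 to 33, 0 to 1, 0 to 33, 21 to 36 and 0 to 24 calls. The medians were 0.21 to 0.42, 0.11 to 0.16, 0.18 to 0.27, 0.20 to 0.39, 0.061 to 0.14, 0.15 to 0.26, 0.33 to 0.53 and -0.29 to -0.079. Each highest count came without control library 1, where 23.1, 2.36, 20.2, 25.7, 0.229, 23.7, 30.5 and 8.14% of all genes were called. Except for the PTSO average, the lowest counts were reached without control library 2. There 1.05, 0.447, 0.0319, 0, 0.351, 6.32 and 0% of all genes were called. The lowest count of the PTSO average, 8, was reached without PTSO library 2, against 3.2% of all genes. DESeq2 size factors changed no count by over 1.5 times. The share of matched genes with a CHR was 37.1% in the 250 bases before the start.

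Signs were compared only for the genes picked by their p in each comparison, and for Foxm1 and Mybl2. Of these, without control libraries 2 and 3, PTSO against control reversed for Anln (-0.011), Krt18 (-0.024), Pdgfra (0.35) and Mybl2 (-0.086). The PTSO average reversed for Csf1r (0.11) and Mybl2 (-0.023). Others of the 40 also changed sign in PTSO against control, with 39 above 0 in the main fit and 35 without these libraries. Leaving out 1 library reversed PTSO against control for 4 of the compared genes. Kif11 was at 0.60 with control library 2 left out and 0.25 with PTSO library 2 left out, in a range of -0.51 to 0.60. Csf1r was at -0.24 with control library 1 left out, and at -0.15 and -0.059 with PTSO library 1 or 3 left out. Col1a1 ranged from -0.079 to 0.015 (PTSO library 2 left out), and Ccnb2 from -0.045 (PTSO library 3 left out) to 0.079. The cause was not tested.

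Over 18 pairs of libraries with the same replicate number, the deviations from group means correlated at -0.0584 to 0.0976. Pairs with different numbers correlated at -0.0852 to 0.0592, and 6 of 12 libraries correlated best with their own number. With 3 libraries per group, such weak correlations cannot settle whether equal numbers mark a pair. With a replicate block the counts were 22, 0, 19, 20, 0, 18, 33 and 0. The shares of all genes were then 5.92, 0.57, 6.73, 8.16, 0, 6.69, 17.5 and 0.00655%. Depth limits Nek2 most, at 9 to 79 counts per library.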

Other observations

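Of 19 tested genes of the G1 and S phases, 1 rose and 3 fell with PTSO averaged over both backgrounds, against 6.51% of all genes called: Cdkn1b, the p27 inhibitor of cyclin-dependent kinases, rose by 0.12 ± 0.0324 (adjusted p = 0.0271), and the cyclin D genes Ccnd1 and Ccnd2 and their kinase Cdk6 fell by 0.18 (adjusted p = 0.00243), 0.16 (adjusted p = 0.0184) and 0.12 (adjusted p = 0.0369). Ccnd1 was at 441, 394 and 417 CPM in PTSO + T. muris, against 472, 479.8 and 488 CPM in T. muris, and at 416, 401 and 414 CPM in PTSO, against 475, 448 and 445 CPM in Control. No library with PTSO reached the level of any library without it. Leaving out control libraries 2 and 3, the PTSO averages of Ccnd1 and Ccnd2 were -0.21 ± 0.0324 (adjusted p = 8.51e-05) and -0.16 ± 0.0417 (adjusted p = 0.0259), and those of Cdk6 and Cdkn1b no longer passed (adjusted p = 0.210 and 0.0890). In PTSO + T. muris against T. muris, Ccnd1 fell by 0.20 (adjusted p = 0.0490). In PTSO against control, Cdkn2a and Cdkn2b fell by 0.22 and 0.30 (adjusted p = 0.0327 and 0.0445; 0.786 and 0.846 without those libraries), and in the presence of antigens they were at 0.14 and 0.031, where neither passed the test. Their interaction, 0.36 ± 0.0833 and 0.33 ± 0.119, did not pass either (adjusted p = 0.609 and 0.644). In the same PTSO average, Rbl1 rose by 0.27 ± 0.0461 (adjusted p = 0.00110), Lin54 by 0.18, the APC regulator Ube2s by 0.18, Anapc15 by 0.37 and the replication gene Gins4 by 0.13; without those libraries Rbl1 alone of these 5 passed (adjusted p = 0.00596).

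Among the epithelial markers, Epcam rose with PTSO in both backgrounds, at 607, 652 and 657 CPM in PTSO + T. muris, against 546, 551 and 546 CPM in T. muris (0.22 ± 0.0429, adjusted p = 0.0217), and at 587, 599 and 620.4 CPM in PTSO, against 495, 478 and 504 CPM in Control (0.29 ± 0.0429, adjusted p = 0.00119). Krt19 and Cdh1 fell by 0.15 and 0.12 in the PTSO average (adjusted p = 0.0299 and 0.0332; 0.260 and 0.336 without control libraries 2 and 3), whereas Epcam was at 0.25 ± 0.0313 without them (adjusted p = 1.67e-06), and at 0.28 ± 0.0512 in PTSO against control (adjusted p = 0.00282). The leukocyte markers Cd68 and Csf1r and the fibroblast markers Pdgfra, Col1a1 and Col1a2 had log2 values of -0.27, 0.086, -0.68, -0.023 and 0.48 in PTSO against control, and 0 of them were called (0 at an unadjusted p under 0.05). In PTSO + T. muris against control Pdgfra fell by 1.93 ± 0.518 (adjusted p = 0.0159; -0.91 ± 0.718 and adjusted p = 0.788 without control libraries 2 and 3), Cd68 was at -0.62 ± 0.228 (adjusted p = 0.0647) and Col1a2 at 1.41 ± 0.576 (adjusted p = 0.0972). Their part in the mitotic gene values was not tested.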
